A study of Mus musculus with 4 samples.

Results

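Genes widely used as readouts of the transcriptional co-activator YAP were followed across the cell types of the mouse common bile duct: Cyr61, Ctgf, Ankrd1, Amotl2, Lats2, Ajuba, Axl and F3. These are 8 of the 30406 genes that both gene references of the series list, and they were picked by name and matched by Ensembl ID, because Cyr61 and Ctgf are written Ccn1 and Ccn2 in one of the references. Single-cell 3′ RNA libraries came from whole, microdissected ducts that were dissociated with enzymes. The GOF library is labelled Prom1_BcatGOF and described as a mosaic gain of function of Ctnnb1, which encodes β-catenin, so its cells are a mixture of changed and unchanged ones. The 3 wild-type libraries (WT1, WT2 and WT3) carry no named allele. No treatment is given for any library, and the construct, the driver of recombination, the strain, the age and the number of animals behind a library are not stated in the labels used. One GOF library was analysed here, so every comparison with it assumes that GOF libraries vary as the wild-type ones do. Nothing says that the wild-type libraries are separate animals, so a p-value reflects no more than spread between these libraries. The statistical fits also share that spread across genes. A p-value therefore does not measure a gene's own spread alone, and can be small where its wild-type libraries differ widely.

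YAP and its paralog TAZ (Wwtr1) are held in the cytoplasm when the Hippo kinases phosphorylate them. When the kinases are quiet, for instance in stretched or injured tissue, they enter the nucleus, bind TEAD factors and switch on genes for matrix signals, cell shape and their own inhibitors. In the liver and bile ducts the pathway is known for biliary cell identity and for the response to injury, and Cyr61 and Ctgf are also known as genes that respond within minutes to serum and to stress.

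The promoters show which members carry a TEAD core motif next to their start. RefSeq promoters (GRCm38.p6) were found for 7 of the 8 members, and the 250 bases before each start were searched on both strands for the TEAD core GGAATG, which reads CATTCC from the other strand. It occurred at 1 place in Cyr61, Amotl2 and Axl and at 2 places in Ajuba and Ankrd1, and was not found in the windows of F3 and Lats2. In Ankrd1 and Amotl2 the window overlaps an annotated exon of the gene itself, and it is not shown. Of all 32851 promoter windows, 12.6% hold it, so a match is a description of the letters and nothing more. F3 held the AP-1 motif TGANTCA at 2 places, a motif found in 6.75% of windows. The windows below are those of Cyr61 (chr3:145649986-145650235, minus strand), Ajuba (chr14:54577662-54577911, minus strand) and Axl (chr7:25788734-25788983, minus strand), written 5′ to 3′ on the strand of the gene, with the TEAD core in capitals; Cyr61 and Ajuba rose in GOF epithelium and Axl did not pass the test there.
Cyr61: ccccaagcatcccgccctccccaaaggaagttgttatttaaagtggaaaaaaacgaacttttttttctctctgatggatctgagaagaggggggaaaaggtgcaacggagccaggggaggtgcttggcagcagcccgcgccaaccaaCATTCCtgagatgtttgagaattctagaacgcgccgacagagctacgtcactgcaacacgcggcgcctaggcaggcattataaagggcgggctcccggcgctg
Ajuba: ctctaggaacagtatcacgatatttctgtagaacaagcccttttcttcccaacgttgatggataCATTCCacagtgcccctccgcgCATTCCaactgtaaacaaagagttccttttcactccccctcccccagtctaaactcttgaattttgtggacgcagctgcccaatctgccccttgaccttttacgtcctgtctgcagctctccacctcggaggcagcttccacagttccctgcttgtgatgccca
Axl: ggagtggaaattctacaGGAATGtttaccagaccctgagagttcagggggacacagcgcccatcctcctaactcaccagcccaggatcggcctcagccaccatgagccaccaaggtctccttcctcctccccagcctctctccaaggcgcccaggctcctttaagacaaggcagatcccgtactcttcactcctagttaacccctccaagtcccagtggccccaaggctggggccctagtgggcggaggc
The core lies 98 to 103 bases before the start in Cyr61, 159 to 164 and 181 to 186 bases before it in Ajuba, and 228 to 233 bases before it in Axl.

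After filtering, 9229 GOF cells and 4334, 2415 and 2058 wild-type cells (WT1, WT2, WT3) remained, and 10.4% of them were assigned to no class. Cells were classed by fixed marker genes, none of which is a member. All 10 epithelial markers were detected in each library, and the epithelial class held 4843 GOF cells and 2948, 1500 and 896 wild-type cells. Its levels rest on 63144334 UMIs in the GOF library, which makes that library the deepest, and its median UMI count per epithelial cell was 8048 in GOF and 7654.5, 3614 and 2754.5 in WT1, WT2 and WT3. The median mitochondrial share of epithelial cells was 3.27% in GOF and 11.6%, 13.3% and 15.8% in WT1, WT2 and WT3 and thus moved with genotype; its part in the results was not tested. The 2 known Wnt targets used as a check followed the labels: Axin2 stood at 112 CPM in GOF epithelium against 3.20, 6.52 and 6.10 CPM in WT1, WT2 and WT3, and Nkd1 at 95.2 CPM against 0.0858, 0.669 and 0.717 CPM. Ctnnb1 itself stood at 275 CPM in GOF epithelium and 581, 555 and 464 CPM in WT1, WT2 and WT3. The labels do not say which part of Ctnnb1 is altered, so its 3′ count checks nothing about the allele. CPM is the number of UMIs of a gene for every 1000000 UMIs of that class in that library, and pairs of libraries shared between 5 and 19 cell barcodes.

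In GOF epithelium, 5 of the 8 members rose: Cyr61, Ankrd1, Ajuba, Ctgf and Lats2. None fell, and Amotl2, Axl and F3 did not pass the test. UMI sums per library were scaled by TMM and compared by edgeR's quasi-likelihood method, with Benjamini-Hochberg adjustment over 15633 genes and a threshold of 0.05. By the same rule 12.3% of all genes tested were higher in GOF epithelium and 4.30% were lower. The levels given are unscaled CPM, and the log2 fold changes come from the scaled fit.

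Both secreted members rose. Cyr61 (chr3:145646976-145649981, minus strand), which encodes a matricellular protein that binds integrins, had 281 CPM in GOF epithelium, against 12.96, 23.8 and 12.0 CPM in WT1, WT2 and WT3. The GOF library lay far above all wild-type libraries, and the counts behind it were 17745 UMIs in GOF and 453, 285 and 67 UMIs in WT1, WT2 and WT3. Its log2 fold change was 3.76 (SE 0.33, adjusted p = 0.00238). Ctgf (chr10:24595442-24598683, plus strand), which encodes a related matricellular protein tied to fibrosis, had 15.9 CPM in GOF and 3.89, 6.19 and 3.95 CPM in WT1, WT2 and WT3. Again the GOF value was above each wild-type one, with a log2 fold change of 1.42 (SE 0.33, adjusted p = 0.0388). Ctgf lies over the antisense gene Gm15270, and the strand setting of the counting is not given in the sources used here.

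Ankrd1 (chr19:36111961-36120099, minus strand), which encodes an ankyrin-repeat protein of the nucleus and the muscle sarcomere, had 21.3 CPM in GOF epithelium, against 2.69, 0.418 and 0.179 CPM in WT1, WT2 and WT3. The wild-type libraries differed among themselves, with 94, 5 and 1 UMIs against 1343 in GOF, and none came near the GOF library. The log2 fold change was 3.60 (SE 0.87, adjusted p = 0.0414), and it became 5.66 without WT1, the wild-type library that held nearly all of the wild-type UMIs.

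Among the members that act within the Hippo pathway, 2 of 3 rose. Ajuba (chr14:54567472-54577558, minus strand), a LIM-domain protein that binds LATS kinases and lowers their activity, had 15.8 CPM in GOF epithelium and 5.15, 4.26 and 2.69 CPM in WT1, WT2 and WT3, a log2 fold change of 1.57 (SE 0.36, adjusted p = 0.0361). Its GOF value lay above each wild-type one. The other two hold YAP back. Lats2 (chr14:57689662-57758388, minus strand), the kinase that phosphorylates YAP, had 19.0 CPM in GOF and a narrow 8.15, 7.19 and 7.71 CPM in the wild-type libraries, for a log2 difference of 0.95 (SE 0.24, adjusted p = 0.0466). The GOF library was again above all of them; Lats2 overlaps the annotated genes Gm49361, Gm26440 and Gm20430. Amotl2 (chr9:102716672-102733418, plus strand), an angiomotin that binds YAP at cell junctions, had 20.1 CPM in GOF and 10.99, 12.5 and 9.86 CPM in WT1, WT2 and WT3. Its GOF value lay above all wild-type values, yet the log2 fold change of 0.50 (SE 0.22) had an adjusted p of 0.167. Amotl2 passed when TMM factors were taken from genes with short introns (log2 fold change 0.90, edgeR adjusted p = 0.0344). That scaling also moved the median log2 fold change of all epithelial genes from 0.00 to 0.41, with 3252 of 15633 genes called higher. The same scaling is quoted for other classes below without its shift over all genes. A pass under it is thus not shown to be particular to a member.

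The members at the cell surface gave no call. F3 (chr3:121723537-121735048, plus strand), tissue factor, the receptor that starts coagulation, had 144 CPM in GOF epithelium and 165, 92.0 and 91.6 CPM in WT1, WT2 and WT3, so the GOF library fell inside the wild-type range (log2 fold change −0.04, SE 0.38, adjusted p = 0.946). Axl (chr7:25757273-25788705, minus strand), a receptor tyrosine kinase for Gas6, was scarce in epithelium, at 1.87 CPM in GOF and 0.916, 1.67 and 1.79 CPM in the wild-type libraries (log2 fold change 0.06, SE 0.63, adjusted p = 0.958).

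Leaving out WT2 left Cyr61 as the 1 member called in epithelium: the adjusted p became 0.0776 for Ctgf and for Ankrd1, 0.121 for Ajuba and 0.207 for Lats2, while each kept its direction. With cells of at most 10% mitochondrial UMIs 3 members were called by edgeR, and Ctgf (log2 fold change 0.77, adjusted p = 0.5) and Lats2 (adjusted p = 0.0985) were not. Calls over all genes changed as well. Without WT2, 797 of 16150 genes tested were higher, and with the lower mitochondrial limit 1532 of 13112.

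**Figure D1:**
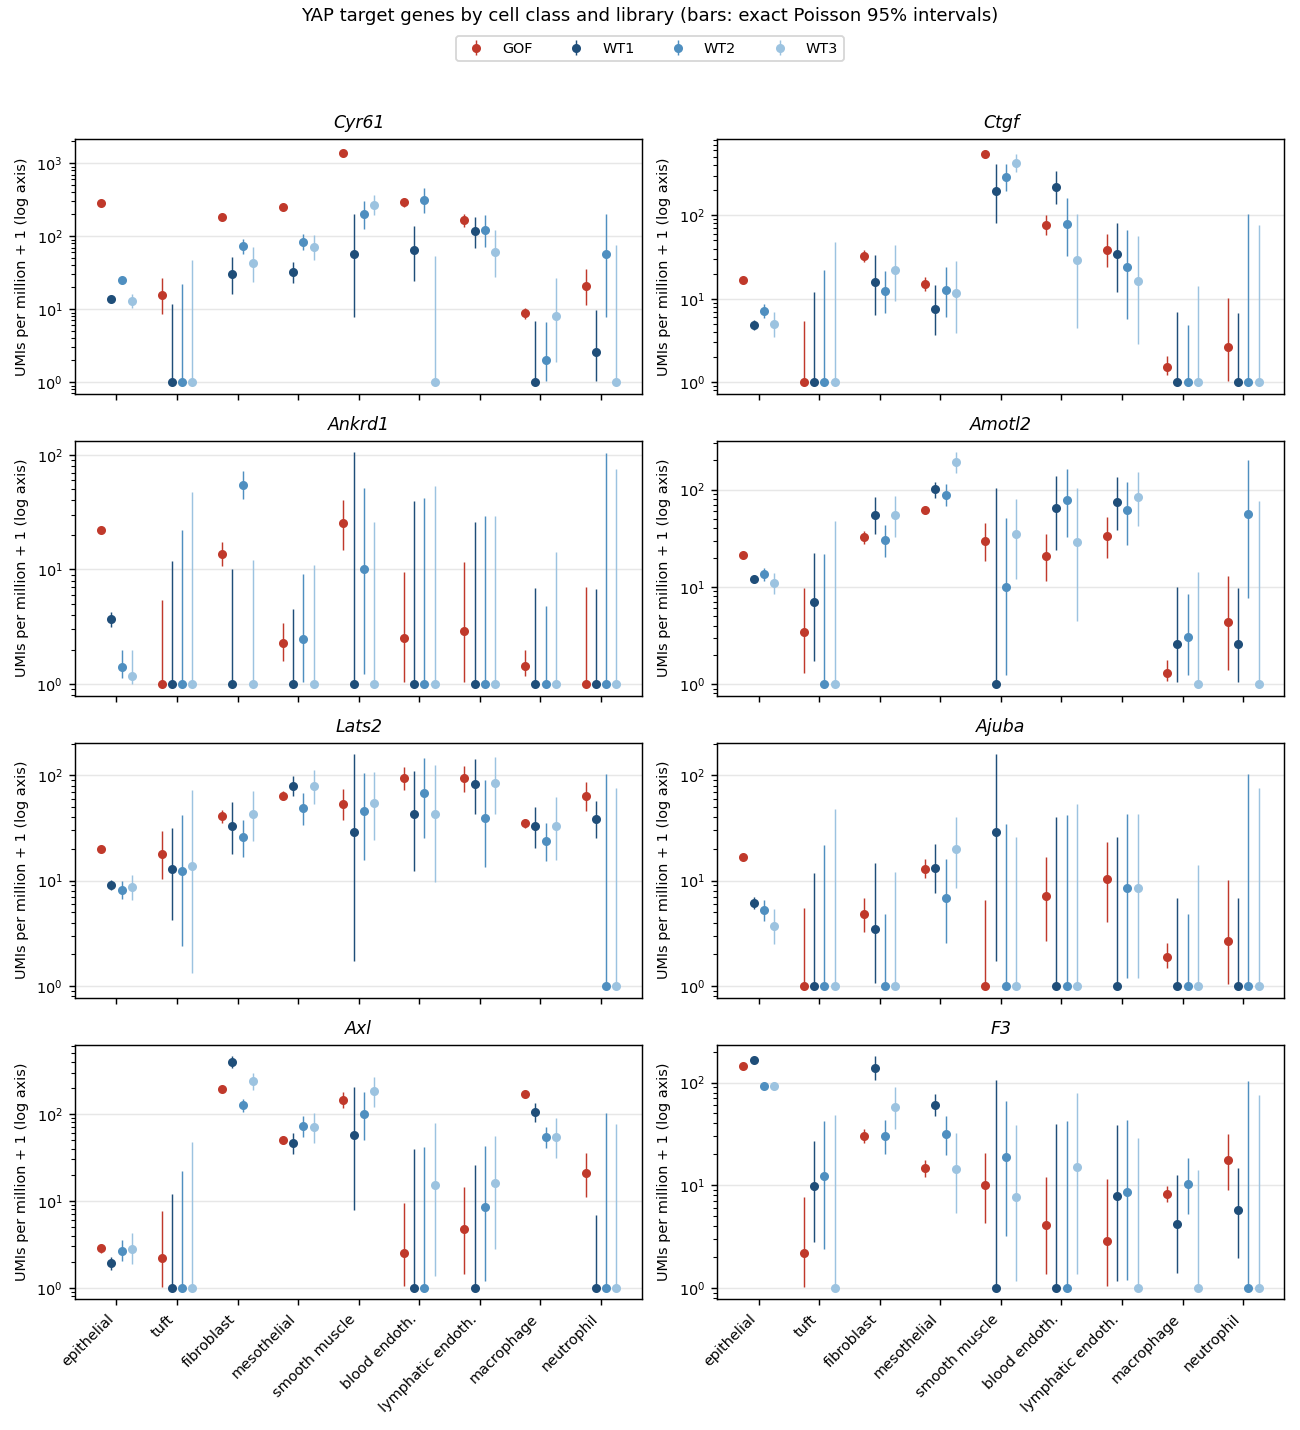
Levels of the 8 genes in 9 cell classes, in CPM plus 1 on a log axis, with 1 point per library (GOF left, then WT1, WT2 and WT3) and exact Poisson 95% intervals. In the epithelial class the GOF points of Cyr61 (281 CPM) and Ankrd1 (21.3 CPM) stand clear of the wild-type points, those of F3 (144 CPM) do not, and Axl is highest in fibroblasts.

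The share of cells with a UMI shows how widely each gene was seen. To compare libraries of unlike depth, each cell was thinned to 2000 UMIs, which left out 561 GOF cells and 133, 173 and 227 wild-type cells (WT1, WT2, WT3). Cyr61 was then seen in 34.1% of GOF epithelial cells (exact Clopper-Pearson 95% interval 32.7 to 35.6%), against 2.59%, 3.99% and 2.39% in WT1, WT2 and WT3. Unthinned, the shares were 60.7% in GOF and 10.2%, 11.1% and 5.58% in the wild-type libraries. T, NK and innate lymphoid cells, which should lack the gene, gave 1.44% of 139 thinned GOF cells, at a median depth of 2657.5 UMIs before thinning against 8048 in GOF epithelium, so the GOF epithelial share lies far above that background. Wild-type macrophages gave 0 of 99 thinned cells in WT1, which allows a share of up to 3.03%, at a median depth of 4814 UMIs before thinning against 7654.5 in WT1 epithelium. The thinned share of 2.59% in WT1 epithelium lies under that limit, while in level WT1 epithelium had 12.96 CPM and WT1 macrophages 0 CPM, with a Poisson 95% upper bound of 5.91 CPM. Intervals here and elsewhere cover counting error only.

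Ankrd1 marked few cells: 2.71% of thinned GOF epithelial cells, against 0.391%, 0.0754% and 0.149% in WT1, WT2 and WT3, where the last 2 shares rest on 1 cell each. Ctgf was seen in 3.15% of thinned GOF epithelial cells and in 0.888%, 1.13% and 0.448% of wild-type ones. F3 was seen in 23.8% of thinned GOF cells and in 26.04%, 16.2% and 16.6% of wild-type cells, which again placed GOF inside the wild-type range. Within thinned GOF epithelium the members overlapped in part: Ankrd1 was found in 4.72% of cells with a Cyr61 UMI and 1.67% of those without, Ctgf in 4.11% and 2.66%, Amotl2 in 5.54% and 3.76%, Ajuba in 4.38% and 3.155% and F3 in 26.15% and 22.55%. Lats2 was closer, in 3.97% and 3.37%, and Axl ran the other way on few cells, in 0.205% and 0.319%. These cells come from 1 library and are a description.

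**Figure D2:**
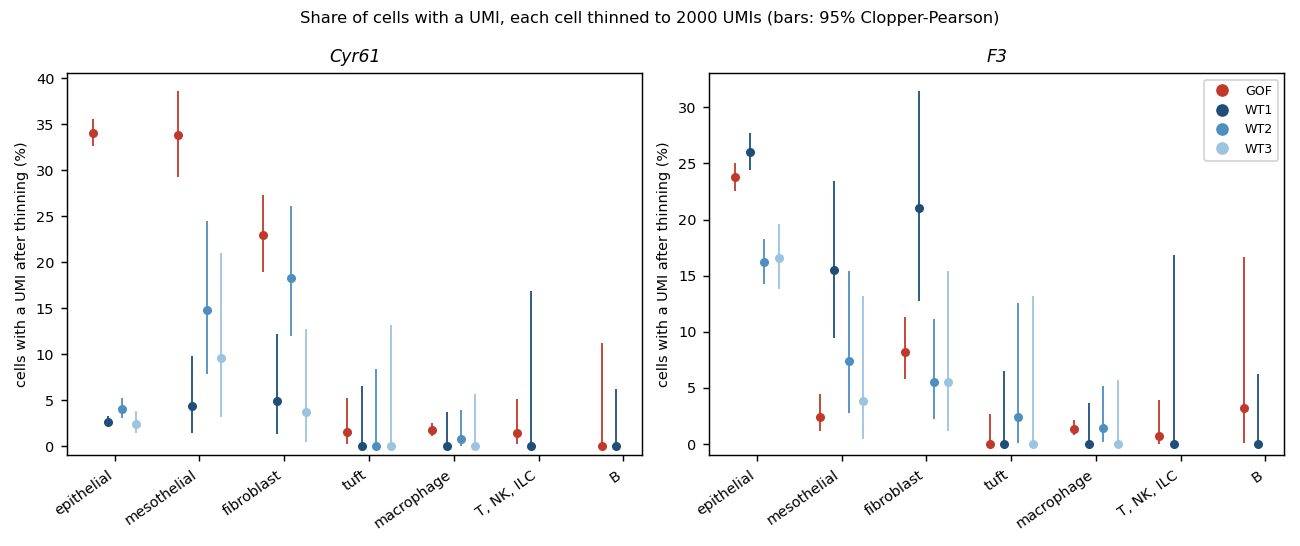
Share of cells with a Cyr61 or F3 UMI after thinning each cell to 2000 UMIs, by class and library (GOF left, then WT1 to WT3), with Clopper-Pearson 95% intervals. Cyr61 reached 34.1% of GOF epithelial cells and 33.8% of GOF mesothelial cells, against 2.39 to 3.99% of wild-type epithelial cells, while T, NK and innate lymphoid cells (T, NK, ILC) stayed at 1.44%.

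Cyr61 was higher in the clusters of GOF epithelium than in those of wild-type epithelium. Clusters were built without the members, and in the 11 epithelial clusters with at least 50 GOF cells Cyr61 ran from 53.5 to 418 CPM, above the 5.12 to 40.5 CPM of the 16 values that wild-type libraries gave in theirs. The lowest GOF value, in cluster 18, rests on 7 UMIs, with a Poisson 95% interval of 21.5 to 110 CPM that reaches into the wild-type range. Its highest GOF levels, 418 and 372 CPM, were in clusters 0 and 2, which also had the highest levels of the Wnt target Axin2 (316.5 and 221 CPM) and high levels of the immediate early gene Atf3 (3343 and 3213 CPM). Clusters 1 and 5, next in Axin2 (136 and 102 CPM), had 217 and 182 CPM of Cyr61, among the lower values. Ankrd1 was uneven, from 0 to 64.2 CPM over the GOF clusters. It peaked in cluster 26, led by Erbb4, Esrrg and Kcnip4 and also by Krt17 and Spp1, which held 28.7% of its UMIs in those clusters. Ctgf was highest in clusters 22 and 26 in GOF, at 35.9 and 32.1 CPM, the first from 10 UMIs.

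Both secreted members were highest in 1 wild-type cluster, number 22, whose leading genes include Mup20, Car4 and Slc2a2. Cyr61 there had 40.5, 31.9 and 20.9 CPM in WT1, WT2 and WT3, the highest cluster value in each library. Ctgf there had 14.4, 11.4 and 10.4 CPM, also the highest in each library. The same cluster gave 269 CPM of Cyr61 in GOF cells. F3 spanned 29.5 to 214 CPM over the GOF clusters and 65.1 to 212 CPM over the wild-type ones. Many clusters are made up mainly of 1 library, so cell state and library cannot be told apart in them.

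**Figure D3:**
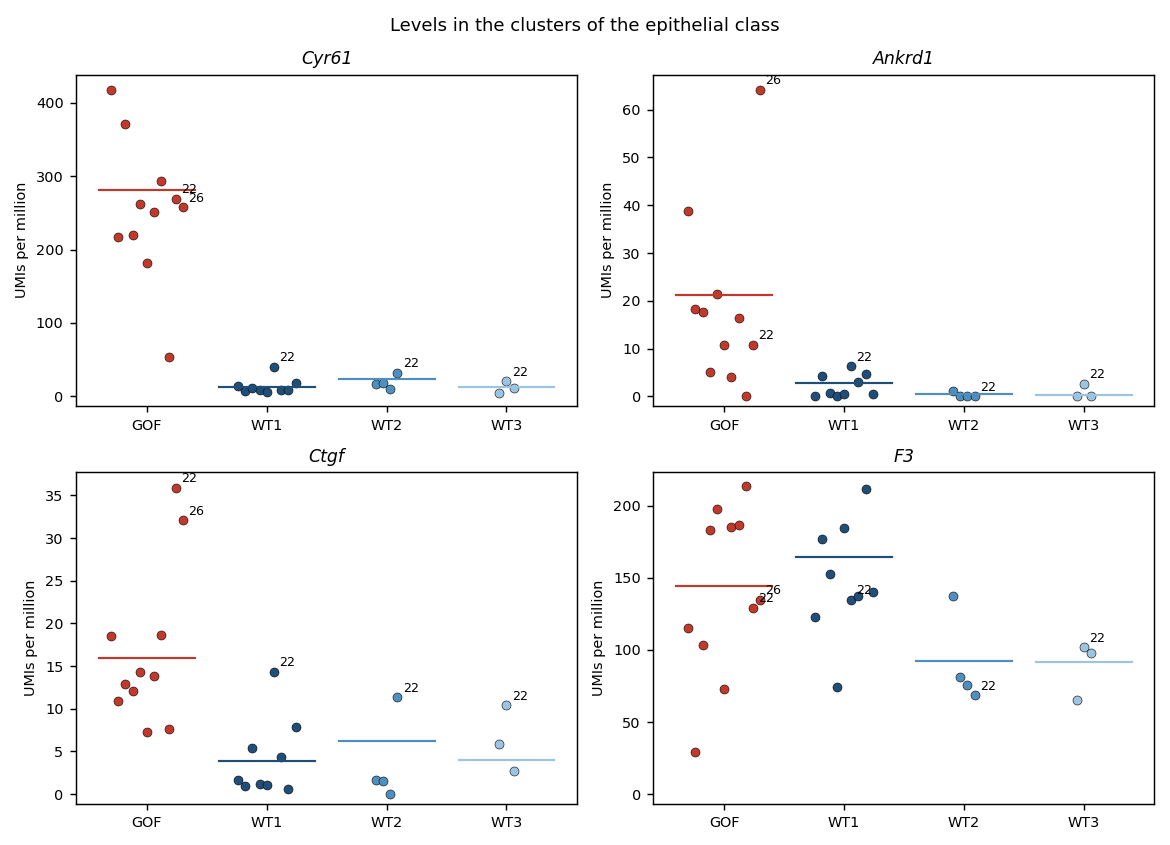
Levels of 4 members, in CPM, in each epithelial cluster with at least 50 cells of a library (points), with the level over the whole epithelial class (lines), GOF left and WT1 to WT3 to its right; clusters 22 and 26 are numbered. All GOF points of Cyr61 lie at 53.5 CPM or above, Ankrd1 peaks at 64.2 CPM in GOF cluster 26, and F3 overlaps between GOF and wild type.

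Outside epithelium, Cyr61 rose in GOF mesothelial cells, the lining of the duct's outer surface. It had 247 CPM in GOF, against 31.3, 83.0 and 70.0 CPM in WT1, WT2 and WT3, with no overlap and a log2 fold change of 1.94 (SE 0.43; adjusted p = 0.0193 by edgeR). It was the 1 of 7 members tested that was called in mesothelium, where 7.73% of all genes were higher. Amotl2 had 60.4 CPM in GOF mesothelium and 99.4, 87.3 and 191 CPM across wild type, for a log2 difference of −1.13 (SE 0.45, adjusted p = 0.157), and F3 had 13.7 CPM against 59.7, 30.6 and 13.4 CPM (−1.57, SE 0.56, adjusted p = 0.120). Both GOF values were low, but F3 overlapped with WT3, and without WT3 it was called lower in GOF (−1.88, adjusted p = 0.000658). Different clusters held most of these cells: 366 GOF cells were in cluster 15, and most wild-type cells in cluster 17 (121, 66 and 49 in WT1, WT2 and WT3), which held 45 GOF cells. Within cluster 17 Cyr61 had 311 CPM in GOF and 32.4, 66.8 and 93.6 CPM in WT1, WT2 and WT3. Thinned, Cyr61 was seen in 33.8% of GOF mesothelial cells and 4.31%, 14.8% and 9.62% of wild-type ones.

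Fibroblasts gave 0 calls among 7 members tested, with 1 at an unadjusted p under 0.05, where 3.56% of genes were higher. Cyr61 was at 183 CPM in GOF fibroblasts and 29.6, 72.6 and 41.9 CPM in WT1, WT2 and WT3, so the groups did not overlap, but the log2 fold change of 1.67 (SE 0.51) had an edgeR adjusted p of 0.107. It passed without WT2 (2.25, adjusted p = 3.65e-05), without the filter on low counts (1.76, adjusted p = 0.00648) and with TMM factors from short-intron genes (2.06, adjusted p = 0.0265). F3 passed as lower in GOF fibroblasts without WT2 (−1.86, adjusted p = 0.00136), and was not called with it (−1.46, adjusted p = 0.348). Ankrd1 was at 12.7 CPM in GOF fibroblasts, against 0, 53.9 and 0 CPM in WT1, WT2 and WT3. All 64 of its GOF UMIs lay in cluster 14, led by Timp1, Slit3 and Col1a1, and all 52 of its WT2 UMIs in cluster 41, led by Cxcl13, Trf and Serpinb2. The leading genes of cluster 41 also include the mesothelial marker Nkain4, and 26 WT2 and 9 WT3 cells in it were classed as mesothelial. With classes taken from clusters, 43.9% of the WT2 fibroblasts kept their class, so the identity of these Ankrd1 cells is uncertain. Most GOF fibroblasts were in clusters 30 and 14 (272 and 162 cells), while most in WT1 and WT3 were in cluster 16 (88 and 145 cells) and those of WT2 in clusters 41 and 16 (93 and 76 cells).

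Smooth muscle cells and pericytes, added after the data were seen because WT1 held just 8 of them, gave a high Cyr61 level in GOF. It was 1403 CPM in GOF, against 56.4, 198 and 270 CPM in WT1, WT2 and WT3, which edgeR put at 2.70 on the log2 scale (SE 0.34, adjusted p = 2.8e-13), where 20.1% of 2985 genes were called in either direction. The WT1 value rests on 2 UMIs and has a 95% Poisson interval of 6.84 to 204 CPM. Thinned, 75.0% of GOF cells of this class had a Cyr61 UMI, against 24.1% in WT2 and 30.6% in WT3. Ctgf in the same cells had 540 CPM in GOF and 198, 289 and 425 CPM in the wild-type libraries, above each of them, with an adjusted p of 0.199.

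Endothelium gave no call, though in blood endothelium the call turned on 1 library and on the scaling. Cyr61 in blood endothelial cells had 290 CPM in GOF, against 63.1, 312 and 0 CPM in WT1, WT2 and WT3, where WT2 lay above GOF (log2 fold change 0.98, SE 0.42, adjusted p = 0.0988). The 28 UMIs in WT2 lay in just 3 cells, with 14 of them in 1 cell. Cluster 34, led by the lymphatic genes Ccl21a and Mmrn1, held 5 WT2 cells of this class and 27 of these UMIs. In GOF that cluster gave 133 of 189 UMIs. Without WT2 the log2 fold change was 2.86 (adjusted p = 0.000351), with classes taken from clusters 4.44 (adjusted p = 2.84e-05), with TMM factors from short-intron genes 1.34 (adjusted p = 0.0238) and without TMM 1.24 (adjusted p = 0.0195). In blood endothelium 0 of 2 members were called, with 1 at an unadjusted p under 0.05, against 11.3% of genes higher. Lymphatic endothelial Cyr61 had 164 CPM in GOF and 115, 122 and 60.8 CPM in the wild-type libraries (log2 fold change 0.54, SE 0.40, edgeR adjusted p = 0.372; 1.01 and adjusted p = 0.0461 with TMM factors from short-intron genes). There 0 of 3 members were called, against 11.5% of genes higher and 6.10% lower. The 1 at an unadjusted p under 0.05 was Amotl2, which was lower in GOF (log2 fold change −1.35, SE 0.66, edgeR adjusted p = 0.156). It had 32.1 CPM in GOF and 74.5, 60.8 and 83.5 CPM in WT1, WT2 and WT3. In blood endothelium Amotl2 was not tested, and had 19.9 CPM in GOF and 63.1, 78.0 and 28.3 CPM in those libraries.

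In immune cells and tuft cells few members had enough counts to test. In macrophages and monocytes 0 of 2 members were called by edgeR, with 1 at an unadjusted p under 0.05, against 7.72% of genes higher. The one near the threshold was Axl, which macrophages use to take up dying cells. It had 168 CPM in GOF and 104, 53.6 and 53.7 CPM in WT1, WT2 and WT3, above each of them, with a log2 fold change of 1.19 (SE 0.46, adjusted p = 0.134), and it passed without WT1 (1.66, adjusted p = 0.0120), without the filter on low counts (1.38, adjusted p = 0.0257) and with TMM factors from short-intron genes (1.63, adjusted p = 0.0176). Neutrophils gave 0 of 2, with 0 at an unadjusted p under 0.05, against 2.64% of genes higher. Tuft cells, rare chemosensory epithelial cells, had no member with enough counts to test: Cyr61 had 12 UMIs or 14.5 CPM in GOF tuft cells and 0 UMIs in each wild-type library. Thinned, it was seen in 1.49% of 134 GOF tuft cells (2 cells, Clopper-Pearson interval 0.181 to 5.29%). The thinned share in GOF T, NK and innate lymphoid cells was 1.44%. Unthinned, the shares were 7.59% in GOF tuft cells and 4.35% in GOF T, NK and innate lymphoid cells. Whether the Cyr61 UMIs of tuft cells are background was not tested, and 2 cells are too few to tell. DESeq2's Wald test fell on the same side of the threshold as edgeR for every member and class of the main test that it gave an adjusted p for.

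**Figure D4:**
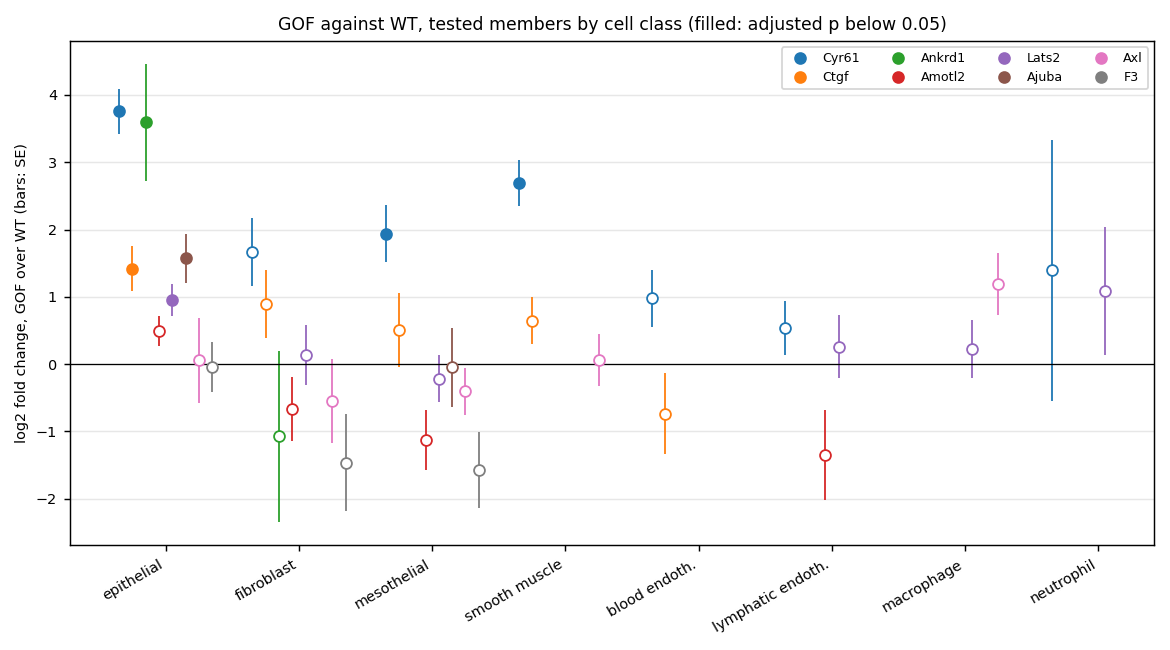
Log2 fold change of GOF over WT for each tested member in each class, with SE bars; filled points have an edgeR adjusted p below 0.05. Epithelium holds 5 filled points, from 0.95 (Lats2) to 3.76 (Cyr61), mesothelium 1 (1.94) and smooth muscle, a class added after the data were seen, 1 (2.70); tuft cells had no tested member.

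Whether the GOF difference was larger in epithelium than elsewhere was tested as an interaction within the same libraries. Cyr61 differed more in epithelium than in fibroblasts by 2.05 on the log2 scale (SE 0.50, edgeR adjusted p = 0.0366, where 0.828% of all genes were called in either direction). Against mesothelial cells the excess was 1.84 (SE 0.39, adjusted p = 0.00451; 2.09% of genes called). Against lymphatic endothelium it was 3.26 (SE 0.46, adjusted p = 1.43e-09; 1.00% called). In each of these 3 classes the GOF level of Cyr61 also lay above every wild-type library. Against blood endothelium the excess of 2.59 (SE 0.46, adjusted p = 8.38e-06; 0.854% called) ended without WT2 (1.14, adjusted p = 1) and turned to −0.84 with classes taken from clusters. The fibroblast contrast missed the threshold without WT3 (1.99, adjusted p = 0.0899).

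Amotl2 was the other member called: its GOF difference was 1.62 higher in epithelium than in mesothelial cells (SE 0.40, adjusted p = 0.0196), and 1.28 (adjusted p = 0.0522) without WT3. Its GOF level lay above every wild-type library in epithelium and below every one in mesothelium. Ankrd1 against fibroblasts (4.71, SE 1.21, adjusted p = 0.0543) and F3 against mesothelium (1.51, SE 0.42, adjusted p = 0.0504) fell just short. Ankrd1 passed without WT1 (7.37, adjusted p = 9.02e-14) and without WT3 (4.82, adjusted p = 2.47e-05), and F3 passed without WT3 (1.73, adjusted p = 0.00599). Over 7 other classes 5 of 55 member contrasts were called and 17 had an unadjusted p under 0.05. No member was called against tuft cells (2.06% of genes called; 1 member at an unadjusted p under 0.05), macrophages (3.22%; 1) or neutrophils (0.0833%; 1). Several of these contrasts could not be called, since the other class held almost no UMIs of the member. Against tuft cells the SE was 6.78 for Cyr61 and 1572110 for Ctgf, and against neutrophils it was 23721.8 for Ankrd1. The lack of a call there does not show that the GOF difference was alike, and these contrasts are counted among the 55.

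In the wild-type duct the 8 genes led in different cell types. Of them, 6 had enough counts to test over 8 classes and 28 pairs of classes, with library as a block, and 102 of their 168 contrasts were called, against 31.6% of contrasts over all genes. F3 was the 1 member highest in epithelium. Members called higher and lower in epithelium were 2 and 0 of 6 against tuft cells (22.6% of genes called in either direction), 1 and 5 against fibroblasts (36.0%), 1 and 4 against mesothelial cells (35.4%), 1 and 4 against blood endothelium (26.8%), 1 and 4 against lymphatic endothelium (33.9%), 4 and 2 against macrophages (45.2%) and 1 and 1 against neutrophils (51.5%). The levels that follow are means with SD over the 3 wild-type libraries.

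F3 averaged 116 ± 42.1 CPM in wild-type epithelium, 74.7 ± 56.7 in fibroblasts, 34.6 ± 23.4 in mesothelial cells and 6.74 ± 5.97 in tuft cells, and 1.58 to 4.79 CPM in the other tested classes. Epithelium was called above fibroblasts (log2 difference 0.88, adjusted p = 0.0387), a call lost without WT2, without WT3, with DESeq2 size factors and with classes taken from clusters. Fibroblasts and mesothelial cells were not separated in the main test (0.96, edgeR adjusted p = 0.137). Fibroblasts were called the higher without WT2 (1.39, adjusted p = 0.0446) and with classes taken from clusters (1.43, adjusted p = 0.00146). Mesothelial cells were above tuft cells (adjusted p = 0.00874, and 0.278 without WT1; with classes taken from clusters tuft cells were the higher, by 0.93, adjusted p = 0.0149), and the neighbours below were not separated. F3 was called higher in epithelium against all 7 other classes.

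Axl followed another order, led by stromal cells. It averaged 252 ± 136 CPM in wild-type fibroblasts, then 70.5 ± 29.1 in macrophages and 62.2 ± 14.6 in mesothelial cells, and 7.60 CPM or less in every other tested class, with 1.46 ± 0.476 in epithelium. Fibroblasts were above macrophages (log2 difference 1.73, adjusted p = 0.000613), macrophages and mesothelial cells were not separated (adjusted p = 0.671), and mesothelial cells were above lymphatic endothelium (3.31, adjusted p = 0.00411). Smooth muscle cells and pericytes, outside these tested classes, had 56.4, 99.2 and 182 CPM in WT1, WT2 and WT3, the first from 2 UMIs. When that class was added to the edgeR fit, fibroblasts (0.90, adjusted p = 0.173) and macrophages (−0.78, adjusted p = 0.238) were not separated from it. Epithelium was called below it (−6.44, edgeR adjusted p = 6.84e-10).

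Cyr61 and Ctgf, the secreted pair, had their highest means among the tested classes in blood endothelium, with a wide spread. Cyr61 averaged 125 ± 165 CPM in blood endothelium, 99.1 ± 33.4 in lymphatic endothelium, 61.4 ± 26.9 in mesothelial cells and 48.0 ± 22.1 in fibroblasts, and no neighbours among these were separated. The place of blood endothelium rests on the few WT2 cells with Cyr61 UMIs in lymphatic cluster 34, described above. With classes taken from clusters, blood endothelium was called below lymphatic endothelium (log2 difference −4.26, edgeR adjusted p = 0.000892). Fibroblasts (3.34, adjusted p = 0.0119) and mesothelial cells (3.15, adjusted p = 0.0165) were then called above it. Epithelium, at 16.3 ± 6.56 CPM, was called below all 4 and above macrophages (2.73 ± 3.87, adjusted p = 0.00127) and tuft cells, which had no UMI. Without WT2 the calls of epithelium against blood endothelium (−1.15, adjusted p = 0.457), fibroblasts (adjusted p = 0.0655), macrophages (adjusted p = 0.0744) and tuft cells (adjusted p = 0.0901) were lost, the last also without WT1 (adjusted p = 0.110). Ctgf averaged 109 ± 100 CPM in blood endothelium, 23.9 ± 9.39 in lymphatic endothelium, 15.7 ± 4.84 in fibroblasts, 9.68 ± 2.68 in mesothelial cells and 4.67 ± 1.31 in epithelium, with no neighbours separated until macrophages, at 0 UMIs (adjusted p = 0.00751, and 0.121 without WT2). Beyond neighbours, fibroblasts (−2.58, edgeR adjusted p = 0.00454), mesothelial cells (−3.33, 0.000497) and epithelium (−4.20, 5.32e-06) were called below blood endothelium for Ctgf. Epithelium was also called below lymphatic endothelium (−2.05, edgeR adjusted p = 0.0321) and fibroblasts (−1.62, 0.0266). The calls against lymphatic endothelium and fibroblasts were lost without WT2 and also without WT3. In smooth muscle cells and pericytes Ctgf averaged 304 ± 115 CPM and Cyr61 175 ± 109 CPM. Both were called above epithelium when that class was added to the fit (adjusted p = 4.95e-11 for Ctgf and 1.14e-06 for Cyr61).

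Amotl2 and Lats2, which restrain YAP, both had their highest mean in mesothelial cells. Amotl2 averaged 126 ± 56.7 CPM in wild-type mesothelial cells, 72.9 ± 11.5 in lymphatic endothelium, 56.5 ± 25.6 in blood endothelium and 45.7 ± 14.5 in fibroblasts, neighbours that were not separated, and 11.1 ± 1.30 in epithelium. Lats2 averaged 68.2 ± 17.5 CPM in mesothelial cells, 67.6 ± 25.7 in lymphatic endothelium, 50.5 ± 14.2 in blood endothelium, 33.0 ± 8.54 in fibroblasts and 29.0 ± 5.46 in macrophages, and was lowest in epithelium at 7.69 ± 0.483 CPM. Epithelial Lats2 was called below 6 of the 7 other classes, all but tuft cells. The call against neutrophils (−2.14, adjusted p = 0.000196) rests on WT1, without which the difference turned to 6.43 (adjusted p = 0.420). Ajuba and Ankrd1 had too few counts to test. Ajuba averaged 12.3 ± 6.51 CPM in mesothelial cells, 5.06 ± 4.39 in lymphatic endothelium and 4.03 ± 1.25 in epithelium. Ankrd1 averaged 17.97 ± 31.1 CPM in cells classed as fibroblasts and 1.10 ± 1.39 in epithelium. All of the fibroblast value came from WT2 cells of cluster 41, whose identity is uncertain, as described above.

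Where classes were taken from clusters, several wild-type contrasts changed: the epithelial minus tuft difference became −0.07 in place of 8.35 for Cyr61 and 0.52 in place of 4.25 for F3, and the difference from blood endothelium became 1.16 (adjusted p = 0.543) in place of −2.50 for Cyr61. By likeness of the mean wild-type profile over 8 classes, among 9869 genes, the genes nearest to F3 were Scara3 (r = 0.980), Fat1 (r = 0.959) and Agtr1a (r = 0.936). Nearest to Axl were Zfp385a, Plxdc2 and Naaa (r = 0.990, 0.989 and 0.980), to Cyr61 Tmem140, Uvssa and Ttc19 (r = 0.971, 0.970 and 0.969), and to Amotl2 Kremen1, Srsf10 and Cavin1 (r = 0.975, 0.974 and 0.956). For Lats2 they were Crybg3, Tmsb10 and Sema6d (r = 0.987, 0.980 and 0.979) and for Ctgf Ppme1, Flywch1 and Pds5b (r = 0.983, 0.982 and 0.978). For the sparse Ajuba and Ankrd1 they were 1190002N15Rik, Cobl and Oplah (r = 0.929, 0.914 and 0.913) and Lsamp, Masp1 and 9330159F19Rik (r = 0.998, 0.997 and 0.997). With 8 points from the same 3 libraries these values describe the profiles and carry no p.

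Other genes of the pathway rose in GOF epithelium too. Of 14 tested genes in a wider list of 15 YAP targets, 7 rose and 0 fell, where 12.3% of all genes were higher, with a median log2 fold change of 0.89 beside 0.00 for all genes. The largest were Tgfb2, a growth factor (2.32, adjusted p = 0.0324), Rbms3, an RNA-binding protein (2.30, adjusted p = 0.00248), Dock5, an exchange factor for Rac (1.75, adjusted p = 0.00864), and Ptpn14, a phosphatase that binds YAP (1.73, adjusted p = 0.00671). From a list of 23 Hippo pathway genes, 7 of 22 tested rose and 0 fell, beside the same 12.3%, with a median of 0.52. Wwtr1, which encodes TAZ, led with 2.30 (adjusted p = 0.00294), followed by the kinase Stk3 (1.79, adjusted p = 0.00525), Ptpn14 and the TEAD-binding Vgll4 (1.54, adjusted p = 0.0120). Yap1 itself had a log2 fold change of 0.04 (adjusted p = 0.919), with GOF inside the wild-type range; it is named here as the pathway's own factor, after its value was seen. In tuft cells, where 19.6% of all genes were higher, 5 of 6 tested wider YAP targets and 9 of 14 Hippo pathway genes rose. In mesothelial cells (7.73% of genes higher) 3 of 12 and 1 of 20 rose, and in fibroblasts (3.56%) 1 of 12 and 1 of 20. In blood endothelium (11.3%) 3 of 6 and 2 of 9 rose, and in lymphatic endothelium (11.5%) 2 of 6 and 2 of 10. In macrophages (7.72% higher, 2.09% lower) 2 of 9 wider targets rose and 1 fell, and 1 of 11 Hippo pathway genes rose. In neutrophils (2.64%) 0 of 7 and 0 of 9 rose by edgeR, with 0 at an unadjusted p under 0.05. The single Hippo pathway genes called in mesothelial cells, fibroblasts and macrophages are near the share over all genes. The GOF and wild-type counts came from different versions of the counting software, and whether introns were counted in each is not given. Among the members, introns span from 0.381 kb in Ctgf to 61.8 kb in Lats2. How far intron counting enters the changes of the members and of these lists was not tested.

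Immediate early genes, which switch on within minutes of stress or of dissociation, also moved with genotype. In GOF epithelium 13 of 22 rose and 0 fell, where 12.3% of all genes were higher, with a median log2 fold change of 2.03, led by Atf3 (7.25, adjusted p = 0.000898), Egr3 (4.41, adjusted p = 0.0305), Egr2 (4.16, adjusted p = 0.0268) and Dusp1 (3.80, adjusted p = 0.00304). In GOF mesothelial cells, where Cyr61 rose, 14 of 21 rose (7.73% of all genes), and in fibroblasts, where no member was called, 2 of 22 rose (3.56%). In tuft cells 13 of 18 rose (19.6%), in blood endothelium 12 of 17 (11.3%), and in lymphatic endothelium 4 of 16 rose and 1 fell (11.5% higher and 6.10% lower). In macrophages 6 of 21 rose (7.72%) and in neutrophils 2 of 20 (2.64%). Over the same GOF epithelial clusters Atf3 ran from 535 to 3392 CPM, and over the wild-type ones from 3.71 to 26.1 CPM. The part of this response in the levels of Cyr61, Ctgf and the other members was not tested, and genotype, mitochondrial share and the version of the counting software cannot be told apart with 1 GOF library.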

How the data were processed

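Single-cell 3′ libraries (10x Genomics, v3 chemistry, per the labels' protocols) were deposited by the authors as UMI counts per gene and cell. The submitters' processing notes name Cell Ranger 7.1 and the mm10 build, while per the file headers the GOF matrix comes from Cell Ranger 7.0.0 and the wild-type ones from 3.0.2, with different gene references; whether introns were counted in each is not given in the sources used here. Genes were joined by Ensembl ID: 30406 are shared, 1879 are listed just for GOF and 647 just for wild type.

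Filters were a minimum of 500 genes and a maximum of 25% mitochondrial UMIs per cell (totals over all barcodes: 113596685 UMIs in GOF and 43737469, 17358894 and 9558637 in WT1, WT2 and WT3). Scrublet's own threshold marked 283 GOF cells and 0, 2 and 9 wild-type cells, so the highest-scoring cells were removed instead, 0.8% for every 1000 barcodes. Cells were classed by marker lists, with at least 3 markers and a second-best score of at most 0.6 of the best; 667 assigned cells lay near that limit. UMIs were summed per library and class and tested with edgeR 4.0.16 (quasi-likelihood, TMM, filterByExpr) under R 4.3.3, for classes with at least 20 cells in each library; the interaction and wild-type fits had library as a block. Levels are unscaled. Clusters (Leiden, resolution 2, members left out) were made with scanpy 1.11.5. Thinning to 2000 UMIs left out 20.6% of all kept cells. Coordinates are from GENCODE M21 (GRCm38). The fits were tested on simulated data.

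Alternatives were DESeq2 1.42.0 (size factors, Wald test), no filter, each wild-type library left out, classes from clusters, TMM on genes with under 5 kb of introns, fewer mitochondrial UMIs and doublets kept; unscaled library sizes and classes with few cells were added after seeing the data. The members and the gene lists were chosen with earlier results of these data known. All 8 members are named; of each other list, up to 4 genes with the largest called change in epithelium, and for likeness the 3 genes with the highest Pearson correlation of log2(CPM + 5) among genes with at least 20 CPM in a class.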

Additional observations from a re-analysis of the deposited data

Results flagged for a closer look

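The GOF difference was not the same in all cell classes, by a test of the difference itself (edgeR interaction, library as a block), for 2 members. For Cyr61 the log2 fold change in epithelium exceeded that in fibroblasts by 2.05, that in mesothelial cells by 1.84, that in blood endothelium by 2.59 and that in lymphatic endothelium by 3.26. The difference from blood endothelium ended without WT2 (1.14, adjusted p = 1) and turned to −0.84 with classes taken from clusters, and the one from fibroblasts missed the threshold without WT3 (adjusted p = 0.0899). For Amotl2 the log2 fold change in epithelium exceeded that in mesothelial cells by 1.62, and without WT3 by 1.28 (adjusted p = 0.0522).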

How the results depend on the processing

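The 5 members called higher in GOF epithelium became 1 to 5 when a wild-type library was left out (lowest without WT2) and 3 with cells of at most 10% mitochondrial UMIs. Calls over all genes in epithelium moved as well, as given below. For the counts over 8 classes, the wild-type contrasts and the interaction contrasts, no share over all genes is given under the alternatives. Changes in those counts therefore do not set the members apart from other genes. Over 8 classes the 6 higher member and class pairs became 11 with TMM factors from short-intron genes, and the 0 lower pairs became 2 without a filter on low counts, 4 with classes from clusters and 0 to 1 with a library left out. Of 168 wild-type contrasts, 102 were called, and 59 to 91 with a library left out. The 5 called interaction contrasts became 10 with classes from clusters, where the Cyr61 contrast with blood endothelium reversed to −0.84; the cause was not tested. Among single members' GOF fold changes and interaction contrasts, 618 values kept direction and side of the threshold, 33 newly passed it, 9 missed it and 1 reversed. Among the wild-type contrasts, over 6 alternatives, 74 values lost their call, 24 gained one, and 7 of called contrasts turned their sign, 1 of them still called (F3 in tuft and mesothelial cells). Over all genes in epithelium the calls were 1916 higher and 673 lower, against 3252 and 286 with short-intron TMM (median log2 fold change 0.41), 2911 and 299 without TMM (median 0.36), 1889 and 1150 with DESeq2's Wald test, 797 and 170 without WT2, and 2374 and 1243 without WT1. Members' changes are thus relative to a median of 0.00 under TMM. No paired analysis was possible because there is a single GOF library and the labels link it to no wild-type library. Depth limits Ankrd1, Ajuba and all members of the rare classes, where many libraries hold 0 to 3 UMIs.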
